A study of Bos taurus with 33 samples.

Results

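Endometrium of pregnant heifers was compared between day 18 and day 15 after insemination. The comparison took every array whose title names a pregnant animal of these days: 4 heifers on day 18 and 3 on day 15, of 33 animals with an array in the series. All were Bavarian Simmental heifers whose cycles had been synchronised with 500 µg of cloprostenol, a prostaglandin F2α analogue, and the pregnant animals were inseminated on day 1 with frozen semen of a single bull. After slaughter the uterus was opened and the conceptus was lifted out before tissue was taken. The tissue was intercaruncular endometrium, the gland-bearing mucosa between the caruncles, of the horn on the side of the corpus luteum, from the medial part of the horn on day 15 and the caudal part on day 18. As a reference for the same days, 4 cyclic heifers of day 18 and 3 of day 15 had received the sperm-free supernatant of semen and were sampled in the same horn parts. Each animal gave 1 array, and age is not given in the sources used here.

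In cattle the conceptus elongates from a small vesicle to a long filament before it attaches, and its trophoblast then secretes interferon tau. This interferon acts on the endometrium, keeps the oxytocin receptor low there so that prostaglandin pulses do not end the corpus luteum, and switches on interferon-stimulated genes such as ISG15 and MX1. Over the same days the luminal and glandular epithelium secretes proteins and nutrients (the histotroph) on which the unattached conceptus lives, and leukocytes are recruited to the mucosa.

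Values are log2 expression per probe set of the Affymetrix bovine array, so a change of 1 is a doubling. The deposited values looked as if each day had been normalised apart (median 6.50 on day 15 and 7.25 on day 18), and the 7 pregnant arrays were therefore quantile normalised together. Day, horn part and normalisation set coincide in these animals and cannot be told apart. For that reason changes in pregnant animals are given beside those in cyclic animals, and the difference between both changes, to which a shift shared by all animals of a day does not contribute, was tested for every probe set. Where a gene is described without that test, its difference did not pass. Changes are given as day 18 minus day 15 ± SE, and adjusted p-values come from limma with Benjamini-Hochberg adjustment over all 24016 probe sets. The 7 arrays correlated with r between 0.968 and 0.992. The actin control, the 3′ minus the 5′ signal that grows as RNA degrades, was 2.31 to 2.55 in the pregnant animals of day 15 and 2.06 to 2.14 in those of day 18 (2.22 to 2.67 and 1.98 to 2.11 in the cyclic animals). The actin control moved with the day in both kinds of animal, and its part in the changes was not tested. The GAPDH control, read in the same way, was -0.16 to -0.05 on day 15 and -0.08 to 0.14 on day 18 in pregnant animals. In cyclic animals it was -0.11 to -0.04 and -0.1 to 0.08, so its days overlapped in both kinds of animal.

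The labels were first checked against markers. ISG15, the ubiquitin-like modifier that interferon tau induces, averaged 13.41 on day 15 and 13.60 on day 18 in pregnant animals against 8.42 and 8.50 in cyclic animals, on the scale of all 14 arrays. Epithelial markers were high throughout the pregnant animals (EPCAM 12.41 on day 15 and 12.33 on day 18), as were stromal markers (DCN 13.54 and 13.64). Mean levels over the 7 epithelial markers ran from 9.75 to 9.80 on day 15 and from 9.61 to 9.91 on day 18, and those over the 6 stromal markers from 11.68 to 12.01 and from 11.73 to 11.87. Genes of the trophoblast were low on average, though not each of them (TKDP1 below). The mean over 13 of them was 4.41 to 4.49 on day 15 and 4.37 to 4.42 on day 18, and IFNT2, an interferon tau gene, was 5.35 and 5.40. Of these 13 genes, 5 were lower and 2 higher on day 18 (53.8% past an adjusted p of 0.05, against 36.8% of all genes), with a median change of -0.04. Among them TKDP1, a trophoblast Kunitz domain protein, was 7.47, 7.43 and 7.43 on day 15 and 7.08, 7.19, 7.17 and 7.28 on day 18. PAG2, a pregnancy-associated glycoprotein, was 3.13, 3.30 and 3.31 on day 15 and 2.96, 3.29, 2.84 and 2.92 on day 18. TKDP1 fell in pregnant animals (-0.26 ± 0.08, adjusted p = 0.027), and the cyclic change of -0.26 did not pass (adjusted p = 0.11). The pregnant call ended without any of the 3 day 15 animals or day 18 animal 1 or 2 (-0.30 to -0.23 with 1 animal left out), and the sign turned without renormalisation (0.47) and in the mean over its probe sets (0.05). ELF5, a transcription factor of trophoblast and gland epithelium, was higher by 0.92 ± 0.10 in pregnant animals and by 0.83 in cyclic ones.

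Between day 15 and day 18 the pregnant endometrium differed in 9039 probe sets (37.6%), 4563 higher on day 18 (19%) and 4476 lower (18.6%). Most of these differences were small: only 342 probe sets (1.42%) were higher and 402 (1.67%) lower by at least 1. In 10768 probe sets (44.8%) the animals of both days did not overlap. With 1 probe set per gene, 3367 of 9155 genes passed (36.8%), 1860 of them higher (20.3%) and 1507 lower (16.5%), and 4097 genes (44.8%) had no overlap. The split between higher and lower depends on the scaling: on the deposited values, whose median rose by 0.66 between the days, 94.5% of the calls were higher (18694 against 1082 lower), and with each array centred on its median 34.5% were (3912 against 7439). A fall smaller than 0.66, and in some genes a larger one, can therefore turn into a rise on the deposited values. Directions are relative to the other genes of the array.

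The cyclic animals showed much of the same change. Among them 9267 probe sets passed (38.6%), 4731 higher (19.7%) and 4536 lower (18.9%), or 3340 genes (36.5%; 19.7% higher and 16.8% lower). Both comparisons called 6193 probe sets in the same direction, which is 68.5% of the pregnant and 66.8% of the cyclic calls, and 31 in opposite directions. Across the 24016 probe sets the changes correlated with r = 0.79 (rho 0.79, over probe sets, which are not independent). These comparisons share no animals. Of the 744 probe sets that changed by at least 1 in pregnant animals, 593 (79.7%) were called the same way in cyclic animals. The change itself differed between pregnant and cyclic animals in 23 probe sets (0.0958%), 14 with a positive difference, pregnant minus cyclic change (0.0583%), and 9 with a negative one (0.0375%). With 1 probe set per gene these were 14 genes (0.153%), 11 positive (0.12%) and 3 negative (0.0328%). At an unadjusted p below 0.05 the difference passed for 2365 probe sets (9.85%). The count of 23 ranged from 6 to 43 with 1 animal left out: it was 6 without day 15 pregnant animal 3 or day 15 cyclic animal 1, 7 without day 18 cyclic animal 1, and 43 without day 18 pregnant animal 1. Counts of 10 to 15 came without day 15 pregnant animal 2, day 18 pregnant animal 4, day 15 cyclic animal 2 or 3, or day 18 cyclic animal 3 or 4.

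**Figure D1:**
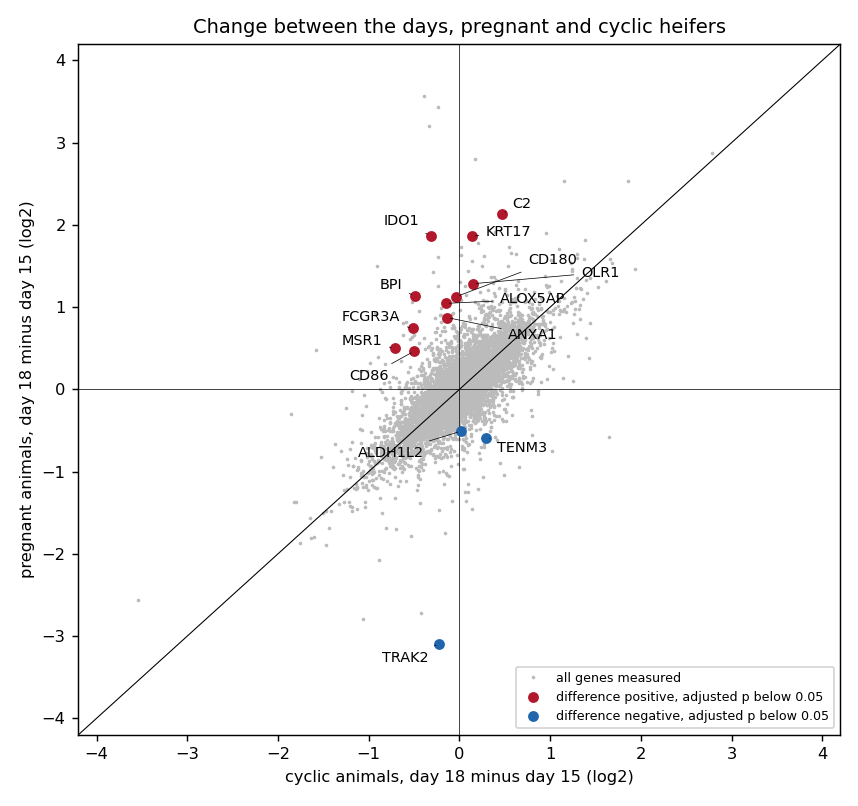
Change from day 15 to day 18 (log2) of 9155 genes in cyclic animals (x axis) and pregnant animals (y axis), with the line of equal change. Coloured points are the 14 genes whose change differed between pregnant and cyclic animals, 11 above the line and 3 below it, and most grey points follow the line (r = 0.79 over all probe sets).

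Among the genes with the largest rises were PLET1, UPK1B, GJB2 and KRT17, whose products are known from epithelia. The largest rises and falls were picked among genes without overlap between the days, which were 44.8% of all genes. Lack of overlap in them is therefore no separate result. PLET1 (gene identifier 505518), a secreted or membrane-anchored protein of epithelia and placenta, was 8.46, 8.85 and 6.94 on day 15 and 11.09, 12.20, 10.74 and 12.04 on day 18. Every day 18 animal was above every day 15 animal, and both days were far above the cyclic animals, which lay between 3.77 and 5.26. PLET1 rose by 3.44 ± 0.50 (10.8-fold, adjusted p = 0.0016), against -0.24 in cyclic animals, and the difference of 3.65 ± 0.65 missed the threshold (adjusted p = 0.058; 0.0018 in a fit of all 24 slaughter arrays). Its other probe set rose as well (2.67, adjusted p = 0.0029). UPK1B, a tetraspanin of the plaques on the surface of uroepithelium, was 5.57, 5.14 and 4.85 on day 15 and 8.05, 10.13, 7.40 and 8.00 on day 18. The days did not overlap, and day 18 animal 2 was the highest. UPK1B rose by 3.21 ± 0.57 (adjusted p = 0.0035) and did not pass in cyclic animals (-0.33, adjusted p = 0.12). The difference was 3.54 (adjusted p = 0.061; 0.0074 in the fit of 24 arrays). Outside the rule for naming genes, the uncharacterised LOC515676 had the largest estimate of any gene, 3.57 (adjusted p = 0.014), against -0.39 in cyclic animals.

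KRT17, a keratin of basal and stressed epithelium, rose from 6.06, 5.59 and 5.90 to 7.33, 8.40, 7.67 and 7.46. No animal overlapped between the days, and the cyclic animals were all between 5.19 and 5.60. The rise was 1.86 ± 0.24 (adjusted p = 0.001), and the change differed from that of cyclic animals by 1.73 ± 0.29 (adjusted p = 0.047). That difference passed in only 2 of 14 fits with 1 animal left out (1.51 to 1.86), those without day 18 pregnant animal 1 or 2. It was also lost on the deposited values (1.62, adjusted p = 0.071), with median centring (adjusted p = 0.06) and in a fit on the mean over each gene's probe sets (adjusted p = 0.051). GJB2, a gap junction connexin, was 5.04, 4.10 and 4.88 on day 15 and 6.41, 9.95, 6.28 and 7.25 on day 18, where animal 2 was again the highest. Its rise of 2.80 ± 0.81 (adjusted p = 0.027) ended without any of the 3 day 15 animals or day 18 animal 4 (at least 1.97 with any 1 animal left out), and with the GAPDH control as a covariate (adjusted p = 0.089), and neither of its 2 other probe sets passed (0.04 and 0.77). The cyclic change was 0.17 (adjusted p = 0.30). The integrin chains ITGA2 and ITGA3, which bind collagen and laminin, rose by 1.65 ± 0.24 and 1.04 ± 0.20 (adjusted p = 0.0016 and 0.0054), and by 1.29 and 0.56 in cyclic animals. The other ITGA2 probe set did not pass (0.07, adjusted p = 0.69). Of 35 genes of adhesion and epithelial junctions, 10 were higher and 3 lower (1 without day 15 animal 3), close to the 10 and 1 of the cyclic animals. Together 37.1% of these genes passed in pregnant animals, against 36.8% of all genes. MUC1, the cell-surface mucin, rose by 0.51 ± 0.13 (adjusted p = 0.018, lost without day 15 animal 1 or 3, 0.44 to 0.61, and with the GAPDH covariate, adjusted p = 0.072), against 0.01 in cyclic animals. It was the only higher gene of the 7 epithelial markers, and CDH1 was the only lower one (-0.33, but 0.21 higher on the deposited values). The lower count became 0 without any animal other than day 15 animal 2 or day 18 animal 3. Of these 7 markers 28.6% passed in pregnant animals, and 0 passed in cyclic animals.

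**Figure D2:**
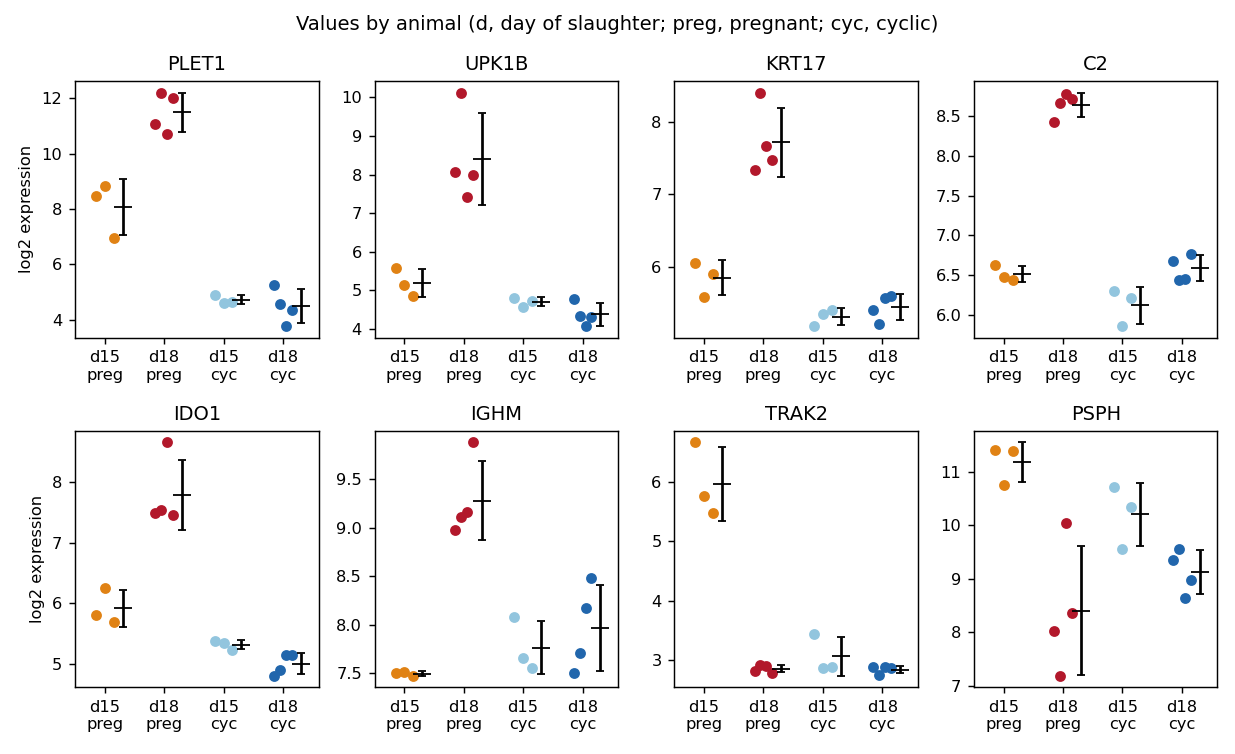
Log2 expression of 8 genes in each animal (points) with the mean ± SD of the group beside them, on the scale of the 14 arrays normalised together; d15 and d18 are the days, preg and cyc pregnant and cyclic animals. In PLET1, UPK1B, KRT17, C2, IDO1 and IGHM the 4 pregnant animals of day 18 lie above all others, in TRAK2 the 3 pregnant animals of day 15 do, and in PSPH 1 pregnant animal of day 18 lies near those of day 15.

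Secreted proteins of the histotroph were more often higher than lower on day 18. Of 42 measured genes, 14 were higher and 4 lower (42.9% called, against 36.8% of all genes). The median change was 0.30 against 0.02 over all genes. In cyclic animals 10 were higher and 3 lower (median -0.02). With 1 animal left out the 4 lower genes became 0 to 2 (0 without day 15 animal 1), except for 5 without day 18 animal 3. SERPINA14, the uterine serpin, was 9.94, 8.26 and 9.61 on day 15 and 9.56, 10.10, 9.93 and 9.40 on day 18. These values overlapped and the change of 0.48 ± 0.37 did not pass (adjusted p = 0.34), lying between -0.02 (without day 15 animal 2) and 0.81 (without day 15 animal 1) when 1 animal was left out. In cyclic animals the same gene fell by 1.58 (adjusted p = 0.0066), and the difference of 2.06 did not pass (adjusted p = 0.20). SPP1, osteopontin, which binds integrins at the implantation surface, was 5.60, 4.59 and 5.40 on day 15 and 7.45, 6.57, 5.07 and 4.75 on day 18. Day 18 animals 1 and 2 were above all others and animals 3 and 4 lay within the day 15 range, and the change of 0.76 ± 0.62 did not pass (adjusted p = 0.36; 0.27 without day 18 animal 1, 0.46 without day 15 animal 2 and 1.17 without day 18 animal 4).

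GPX3, the secreted glutathione peroxidase, was 3.92, 4.04 and 4.47 on day 15 and 5.13, 7.48, 5.18 and 5.37 on day 18. The days did not overlap, but day 18 animal 2 stood well above the rest. Its rise of 1.65 ± 0.53 (adjusted p = 0.041) became 1.07 without that animal and ended without any day 15 animal or day 18 animal 4 (highest 1.85) and with the GAPDH covariate (adjusted p = 0.10), and the cyclic change was 0.62 (adjusted p = 0.0065). IGFBP1, the binding protein of insulin-like growth factors that the ruminant uterine epithelium secretes around elongation, moved the other way. It was 11.46, 10.26 and 11.17 on day 15 and 7.39, 7.01, 10.72 and 7.86 on day 18. Day 18 animal 3 remained at the day 15 level while the other 3 were far below it. The fall of 2.72 ± 0.81 (adjusted p = 0.03) ended without day 15 animal 1 or 3 or day 18 animal 1, 2 or 4 (-3.55 to -2.32) and with the GAPDH covariate (-2.14, adjusted p = 0.15), and the cyclic change was -0.42 (adjusted p = 0.12).

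Complement genes formed one of the lists with the highest share of rises. Of 24 measured, 14 were higher and 3 lower on day 18 (70.8% called, against 36.8% of all genes), with a median of 0.54. In cyclic animals 5 were higher and 4 lower (median 0.15). C2 (gene identifier 515440), the protease subunit of the classical pathway convertase, was 6.62, 6.47 and 6.43 on day 15 and 8.43, 8.66, 8.77 and 8.71 on day 18. Both groups were tight and about 2 log2 units apart. The rise was 2.13 ± 0.10 (4.39-fold, adjusted p = 6.6e-05), against 0.47 in cyclic animals (adjusted p = 0.023). The difference of 1.67 ± 0.17 (adjusted p = 0.0032) passed in all 14 fits with 1 animal left out (1.58 to 1.80), and the other C2 probe set gave 2.42 and a difference of 1.64 (adjusted p = 0.0037).

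CFB, the equivalent protease of the alternative pathway, was 6.80, 6.73 and 6.75 on day 15 and 9.00, 7.96, 8.67 and 7.84 on day 18. It rose by 1.61 ± 0.26 (adjusted p = 0.0025) against -0.24 in cyclic animals, with a difference of 1.85 that did not pass (adjusted p = 0.13; 0.023 in the fit of 24 arrays). C1QB and C1QA, chains of the recognition molecule C1q that macrophages make, rose by 1.29 ± 0.16 and 0.89 ± 0.15 (adjusted p = 0.00081 and 0.0033), against 0.17 and 0.10 in cyclic animals. The 3 lower genes were C4BPB, a chain of the C4b-binding inhibitor, the terminal component C8A and VTN, vitronectin (the last pair outside the rule for naming genes). C4BPB was 4.40, 4.65 and 4.77 on day 15 and 3.23, 3.14, 3.16 and 3.17 on day 18. It fell by 1.43 in pregnant and 1.18 in cyclic animals. C8A and VTN fell by 0.56 and 0.48 but were 0.12 and 0.35 higher on the deposited values. Without day 18 animal 3, 5 complement genes were lower.

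Of the 14 genes whose change differed between pregnant and cyclic animals, 8 are described next, 6 of which were named after their values were seen. None of them is in any of the gene lists used here, and 0 genes passed the test of the difference in the lists of macrophage markers, neutrophil markers and acute inflammation. FCGR3A, an Fc receptor of macrophages and NK cells, was 5.78, 5.71 and 5.75 on day 15 and 6.08, 6.62, 6.58 and 6.69 on day 18. It rose by 0.74 ± 0.14 (adjusted p = 0.0053) in pregnant animals and fell by 0.51 in cyclic ones. MSR1, the macrophage scavenger receptor, rose by 0.50 ± 0.09 in pregnant animals (6.89, 7.02 and 6.99 against 7.36, 7.62, 7.50 and 7.37) and fell by 0.71 in cyclic ones. CD86, the T cell costimulator on antigen-presenting cells, rose by 0.47 ± 0.12 (adjusted p = 0.017, ended without day 15 animal 1 or 3, 0.36 to 0.54) and fell by 0.50 in cyclic animals. The 3 cyclic falls depend on the scaling, since on the deposited values FCGR3A, MSR1 and CD86 were 0.35, 0.09 and 0.34 higher on day 18 in cyclic animals. The difference of CD86 lost its call on the deposited values (0.90, adjusted p = 0.067).

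Further genes rose in pregnant animals with little change in cyclic ones. CD180, a Toll-like receptor homologue of B cells and macrophages, was 5.43, 5.36 and 5.19 on day 15 and 6.28, 6.50, 6.79 and 6.24 on day 18. Its change of 1.13 ± 0.14 (adjusted p = 0.00082) stood beside -0.04 in cyclic animals. OLR1, the receptor for oxidised low-density lipoprotein, rose by 1.28 ± 0.13 from 3.85, 3.98 and 3.85 to 5.30, 5.37, 4.84 and 5.20. ALOX5AP, which presents arachidonic acid to the leukotriene-forming lipoxygenase, rose by 1.05 ± 0.10 from 7.19, 7.18 and 7.37 to 8.31, 8.44, 8.12 and 8.30. None of these 3 genes overlapped between the days, as was so for 44.8% of all genes. ANXA1, an anti-inflammatory phospholipid-binding protein, rose by 0.87 ± 0.12 and BPI, an antibacterial protein of neutrophils and epithelia, by 1.13 ± 0.20. The cyclic changes were 0.15 for OLR1, -0.15 for ALOX5AP, -0.14 for ANXA1 and -0.49 for BPI, and on the deposited values those of ALOX5AP, ANXA1, BPI and CD180 were positive (0.62, 0.35, 0.37 and 0.85).

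The differences in change of these 8 genes were 1.25 for FCGR3A, 1.21 for MSR1, 0.97 for CD86, 1.17 for CD180, 1.15 for OLR1, 1.20 for ALOX5AP, 1.03 for ANXA1 and 1.62 for BPI, with adjusted p between 0.019 and 0.031. They held less well than that of C2: among the 14 fits with 1 animal left out, CD180 passed in 10, ANXA1 in 9, ALOX5AP in 7, CD86 in 4 and the other 4 genes in 3 each. All 8 calls were lost without day 15 pregnant animal 3, day 15 cyclic animal 1 or day 18 cyclic animal 1, and all 8 passed without day 18 pregnant animal 1. The estimates lay between 0.86 and 1.76 over these genes and fits. The 2 other MSR1 probe sets rose in pregnant animals (0.84 and 0.46) but their differences were 0.11 and 0.31 and did not pass. In the fit of 24 arrays the differences of OLR1 and MSR1 were lost (adjusted p = 0.062 and 0.076). Of 5 markers of macrophages and dendritic cells, 3 rose in pregnant animals (C1QB, C1QA and CSF1R, the receptor for the macrophage growth factor, by 0.68 ± 0.16, adjusted p = 0.011, and 0.056 with the GAPDH control as a covariate) and 2 did not pass (CD14 0.30 and CD68 -0.26). Their mean level was 8.42 to 8.51 on day 15 and 8.82 to 9.39 on day 18, and in cyclic animals 0 of the 5 passed. In pregnant animals 60% of the 5 passed, against 36.8% of all genes. Of 3 neutrophil markers, 1 was lower (S100A9, -0.29, but 0.46 higher on the deposited values). In tissue RNA, more cells of a type and more RNA per cell cannot be told apart, and the part of these markers in the other changes was not tested.

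**Figure D3:**
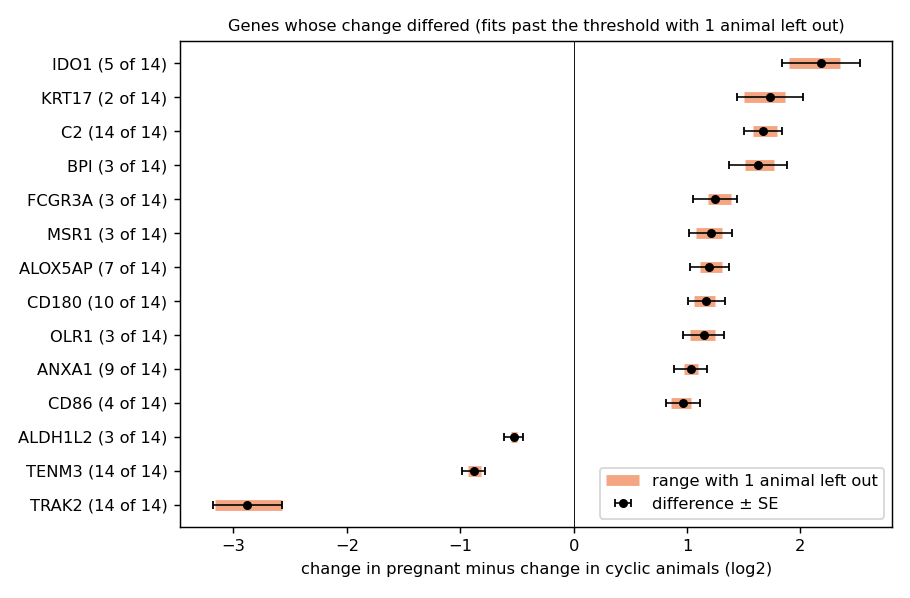
Difference between the pregnant and the cyclic change from day 15 to day 18 (log2, point ± SE) for the 14 genes past the threshold, with bars for the range when each of the 14 animals is left out. Numbers beside the symbols give the fits out of 14 in which the gene still passed: 14 for C2, TENM3 and TRAK2 and 2 to 10 for the others.

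Acute inflammation and innate defence genes were higher in 11 and lower in 3 of 28 measured (median 0.27), against 7 and 4 in cyclic animals (median -0.08). Of the 28, 50% passed in pregnant animals, against 36.8% of all genes. Without 1 animal the 11 became 6 to 10, with 6 without day 15 animal 3 and 7 without day 15 animal 2, and the 3 became 1 without day 15 animal 3 or day 18 animal 2, 3 or 4. PTX3, a soluble pattern recognition protein, was 8.13, 8.07 and 7.30 on day 15 and 8.89, 9.34, 9.63 and 9.45 on day 18. It rose by 1.50 ± 0.24 (adjusted p = 0.0021) and was -0.91 in cyclic animals (adjusted p = 0.052). The difference of 2.40 just missed the threshold (adjusted p = 0.058). IL1R2, the decoy receptor for interleukin 1, rose by 1.11 ± 0.15 in pregnant and 0.90 in cyclic animals. Chemokines and cytokines were higher in 12 and lower in 8 of 48 measured (41.7% called). CCL4, a chemokine for macrophages and T cells, rose by 1.47 ± 0.22 (4.91, 4.82 and 4.73 to 5.81, 6.19, 6.22 and 6.93) and by 1.25 in cyclic animals. CXCL17, a mucosal chemokine, and CSF3, the granulocyte growth factor, each fell by 1.21 in pregnant and by 1.24 and 1.14 in cyclic animals.

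Type I interferon response genes were more often higher than lower on day 18, while ISG15 and MX1 were already near the highest value of the arrays on day 15. Of 50 measured genes, 19 were higher and 1 lower on day 18 (TRIM25, outside the rule for naming genes), with a median of 0.33 against 0.02 over all genes. The share called was 40%, against 36.8% of all genes. In cyclic animals 8 were higher and 5 lower (median 0.08). With 1 pregnant animal left out the 19 became 10 to 21, with 10 without day 15 animal 3 and 11 without day 15 animal 2. ISG15 was 13.52, 13.34 and 13.35 on day 15 and 13.48, 13.57, 13.72 and 13.65 on day 18. MX1, the antiviral GTPase, was 13.32, 13.15 and 13.17 and then 13.34, 13.39, 13.43 and 13.35. Both lay near the highest value of the arrays (14.2), and neither passed (0.20 and 0.17, adjusted p = 0.10 and 0.12). With arrays centred on their median both were lower on day 18, at -0.36 each, and passed (adjusted p = 0.023 and 0.0065), and on the deposited values both were higher, at 0.39 each, and passed as well (adjusted p = 0.0064 and 0.0014).

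MX2, the second antiviral GTPase, was 11.19, 10.96 and 10.81 on day 15 and 11.51, 11.64, 11.96 and 11.76 on day 18. It rose by 0.73 ± 0.13 (adjusted p = 0.0037) against 0.14 in cyclic animals (means 5.84 and 5.98 there), with a difference of 0.59 (adjusted p = 0.62). RSAD2, viperin, rose by 0.54 ± 0.14 (adjusted p = 0.019), a call that ended without day 15 animal 2 or 3 (0.44 to 0.64) and with arrays centred on their median (0.12), against 0.07 in cyclic animals. UBE2L6, the enzyme that conjugates ISG15, and TAP1, a peptide transporter, rose by 0.90 ± 0.18 and 0.91 ± 0.11, and by 0.76 and 0.56 in cyclic animals. PLAC8A rose by 1.10 ± 0.32 (adjusted p = 0.027) and by 1.36 in cyclic animals (adjusted p = 0.088), and its pregnant call ended without day 15 animal 2 or 3 or day 18 animal 1 or 4 (0.84 to 1.44), with the GAPDH covariate (0.55, adjusted p = 0.11) and in 1 fit of the 14 arrays (adjusted p = 0.095). CXCL10, a chemokine for T and NK cells, was 10.26, 10.05 and 9.75 on day 15 and 10.14, 10.02, 11.24 and 10.74 on day 18. Day 18 animals 1 and 2 lay in the day 15 range, and the change of 0.51 did not pass (adjusted p = 0.19; 0.28 without day 18 animal 3). TRIM25, an ubiquitin ligase of the RIG-I pathway, fell by 0.64 (adjusted p = 0.0497), past the threshold only with all 7 arrays or without day 18 animal 3 (-0.83 to -0.48).

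IDO1, the enzyme that degrades tryptophan and dampens T cells, was the member of this list with the largest change and the one whose change differed from cyclic animals. It was 5.80, 6.26 and 5.68 on day 15 and 7.48, 7.53, 8.65 and 7.45 on day 18. Every day 18 animal was above day 15, and animal 3 stood above the other 3. IDO1 rose by 1.87 ± 0.30 (adjusted p = 0.0022) and fell by 0.32 in cyclic animals (0.56 higher there on the deposited values and 0.11 higher in the mean over its probe sets). The difference was 2.18 ± 0.34 (adjusted p = 0.031), past the threshold in 5 of 14 fits with 1 animal left out (1.90 to 2.35) and lost without day 15 pregnant animal 1 or 3 or any cyclic animal. Its other probe set rose by 3.04, with a difference of 2.50 that did not pass (adjusted p = 0.13).

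**Figure D4:**
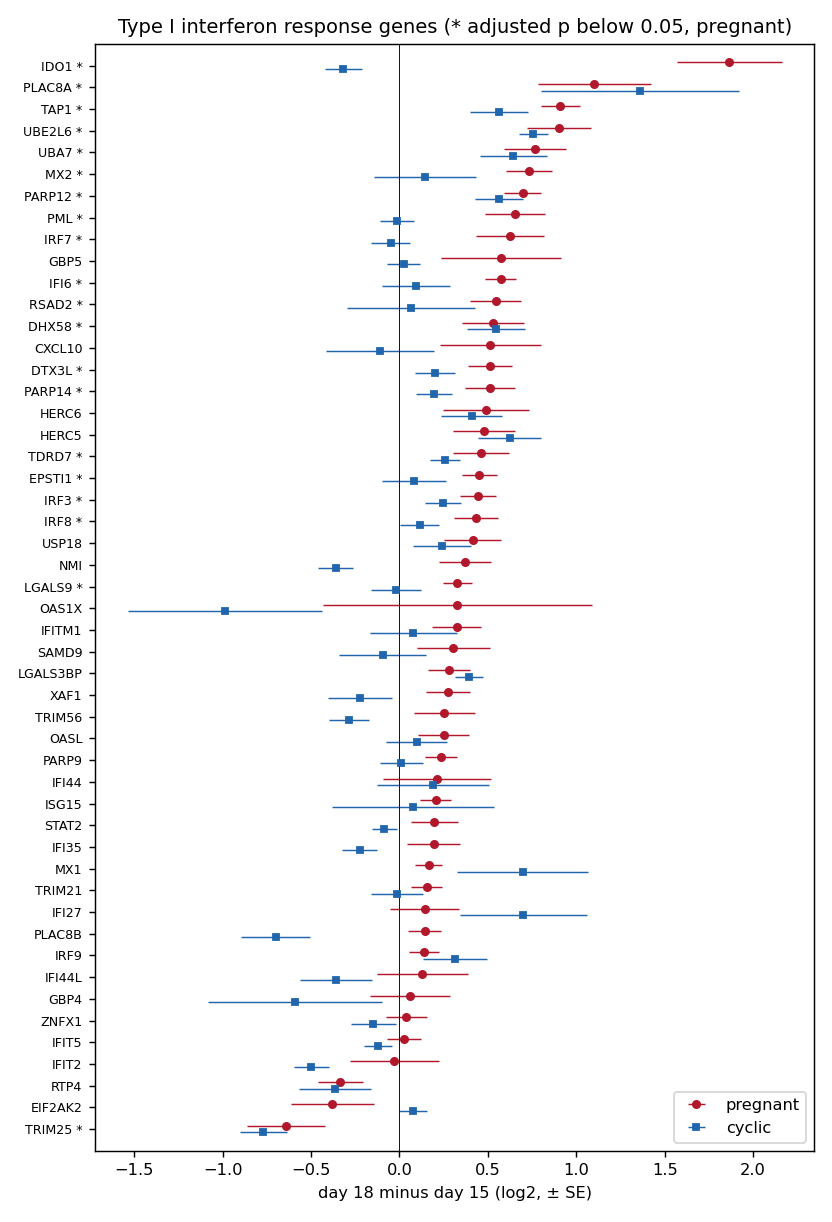
Change from day 15 to day 18 (log2 ± SE) of the 50 measured type I interferon response genes in pregnant (circles) and cyclic animals (squares), ordered by the pregnant change; asterisks mark the 20 genes past the threshold in pregnant animals. IDO1 leads with 1.87 while ISG15 and MX1 stand at 0.20 and 0.17.

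Antigen presentation genes of class I were higher in 9 and lower in 1 of 16 measured, with a median of 0.38, and in cyclic animals 5 were higher and 0 lower (median 0.17). In pregnant animals 62.5% passed, against 33.3% of the class II genes and 36.8% of all genes. The 9 and the 1 were the same counts in every fit with 1 pregnant animal left out. CALR and PDIA3, chaperones of the peptide-loading complex, rose by 0.96 ± 0.08 and 0.80 ± 0.10, and by 1.03 and 0.48 in cyclic animals. ERAP2, a peptide-trimming protease, was the lower gene (-0.98 ± 0.21, adjusted p = 0.0074, and -0.24 with an adjusted p of 0.30 on the deposited values; -0.40 in cyclic animals). Of 12 class II genes, 4 were higher and 0 lower (3 or 4 higher with 1 animal left out, and 1 lower without day 18 animal 2), against 1 and 2 in cyclic animals. BOLA-DOA and BOLA-DMB, chains of the molecules that steer class II loading, rose by 0.94 ± 0.15 and 0.67 ± 0.16 (adjusted p = 0.0023 and 0.011) against 0.24 and -0.02 in cyclic animals. BOLA-DMA rose by 0.79 ± 0.14 and by 0.50 in cyclic animals.

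Immunoglobulin genes rose in pregnant animals, by very different amounts. IGHM, the heavy chain of immunoglobulin M, was 7.49, 7.51 and 7.47 on day 15 and 8.97, 9.11, 9.16 and 9.89 on day 18. It rose by 1.79 ± 0.20 (adjusted p = 0.00055) against 0.20 in cyclic animals, with a difference of 1.58 that did not pass (adjusted p = 0.13). JCHAIN, which joins secreted immunoglobulins, was 7.06, 7.32 and 7.04 on day 15 and 11.72, 8.70, 8.89 and 9.40 on day 18, and IGCGAMMA, an immunoglobulin G constant region, was 7.02, 7.01 and 7.28 and then 11.89, 8.90, 8.56 and 9.19. Day 18 animal 1 was the highest in both. Their rises were 2.54 ± 0.64 and 2.53 ± 0.71 (adjusted p = 0.016 and 0.023). The JCHAIN call ended without day 15 animal 3 (1.86 to 2.88 with 1 animal left out) and the IGCGAMMA call without any day 15 animal (1.79 to 2.90). With the GAPDH covariate both calls ended, at 1.53 for JCHAIN and 1.33 for IGCGAMMA (adjusted p = 0.076 and 0.09), and the other IGCGAMMA probe set did not pass (0.63, adjusted p = 0.19). In cyclic animals JCHAIN rose to 8.12, 8.06, 9.31 and 12.76, and that change of 1.86 did not pass (adjusted p = 0.18), nor did the 1.16 of IGCGAMMA (adjusted p = 0.31).

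Of 4 measured B and plasma cell markers, 2 were higher (1 without day 15 animal 3), 1 was lower (CD79A, -0.62, but 0.12 higher on the deposited values) and MS4A1 did not pass (-0.12). Their mean level was 6.07 to 6.19 on day 15 and 6.80 to 7.45 on day 18. Of these markers 75% passed, against 36.8% of all genes. Of 7 T and NK cell markers, 3 rose (42.9% called), with mean levels of 6.21 to 6.31 and 6.33 to 7.17. CD3E, a T cell receptor chain, rose by 0.75 ± 0.12 (adjusted p = 0.0025). CD8A and CD3D, of the same receptor complexes, rose by 0.69 and 0.68 (adjusted p = 0.019 and 0.016), and both calls were lost without day 15 animal 1, and that of CD8A also without animal 2 (0.53 to 0.80 for CD8A and 0.54 to 0.78 for CD3D), which left 1 T and NK cell marker. The cyclic changes were 0.49, 0.74 and 0.44 and did not pass in the cyclic arrays alone (adjusted p = 0.058, 0.059 and 0.068). Under other settings they did pass. With median centring, in 1 fit of the 14 arrays and with the GAPDH covariate, adjusted p was 0.042, 0.029 and 0.039 for CD3E. For CD8A it was 0.04, 0.032 and 0.016. CD3D passed with median centring (adjusted p = 0.033) and in the mean over its probe sets (0.74, adjusted p = 0.0044). The other CD3D probe set rose by 1.14 in pregnant animals, with a difference of 0.10 that did not pass. The part of these markers in other changes was not tested.

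TRAK2 showed the largest fall. TRAK2 (gene identifier 523970), an adaptor that links mitochondria to kinesin, was 6.66, 5.75 and 5.47 on day 15 and 2.83, 2.93, 2.91 and 2.80 on day 18. The cyclic animals were at the low level on both days (3.44, 2.86 and 2.89 on day 15 and 2.75 to 2.88 on day 18), so that only the pregnant animals of day 15 stood apart. This low level is near the floor of the arrays, whose lowest deposited value was 1.89. It also lies below the mean of 5 that the filter on dim probe sets required. The fall of 3.09 ± 0.24 (adjusted p = 0.00017) differed from the cyclic change of -0.22 by -2.88 ± 0.30 (adjusted p = 0.0032), and passed in all 14 fits with 1 animal left out (-3.16 to -2.57), but not in the fit of 24 arrays (-2.85, adjusted p = 0.08). A single probe set measures TRAK2. TENM3, a teneurin adhesion receptor, fell from 6.55, 6.53 and 6.62 to 6.10, 5.87, 6.00 and 5.95 (-0.59 ± 0.08) while it rose by 0.30 in cyclic animals. On the deposited values TENM3 was 0.20 higher in pregnant animals. That difference of -0.88 ± 0.10 (adjusted p = 0.004) held in all 14 fits, but the 2 other TENM3 probe sets fell by 1.49 and 1.18 with differences of -0.30 and -0.31 that did not pass, and the mean over the 3 gave -0.59 in cyclic animals. ALDH1L2, a mitochondrial folate enzyme, fell by 0.51 ± 0.07 in pregnant animals (0.30 higher on the deposited values) against 0.01 in cyclic animals. Its difference of -0.53 (adjusted p = 0.031) passed in 3 of 14 fits.

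Other large falls had no difference from cyclic animals that passed. PSPH, the last enzyme of serine synthesis, was 11.42, 10.76 and 11.41 on day 15 and 8.02, 7.18, 10.06 and 8.35 on day 18, with animal 3 closest to the day 15 level. It fell by 2.79 ± 0.58 (adjusted p = 0.0068) and by 1.06 in cyclic animals, with a difference of -1.70 (adjusted p = 0.46). CRIPTO, an embryonic growth factor co-receptor, fell from 8.53, 8.81 and 8.53 to 6.99, 5.33, 7.05 and 4.90, by 2.56 ± 0.52, and by 3.55 in cyclic animals. PTGR1, which inactivates prostaglandins and leukotrienes, fell by 2.07 ± 0.28 and PRRG4, a membrane protein with a Gla domain, by 1.70 ± 0.21. Their cyclic changes were -0.89 and -0.70. ADAM12, a membrane metalloprotease, fell by 1.90 ± 0.25 and by 1.47 in cyclic animals. PCSK1, a prohormone convertase, and PROC, protein C of coagulation, fell by 1.86 ± 0.09 and 1.80 ± 0.09, and by 1.76 and 1.60 in cyclic animals. The differences of these 5 genes did not pass (adjusted p of 0.34 or more). MTPN, myotrophin, fell by 1.75 ± 0.44 (adjusted p = 0.015, lost without day 15 animal 1 or 3, -2.16 to -1.46, and with the GAPDH covariate, adjusted p = 0.083; -0.15 in cyclic animals), and HSD17B13, a lipid droplet protein, by 1.79 ± 0.58 (adjusted p = 0.042). The HSD17B13 call was lost without any day 15 animal or day 18 animal 1 or 4 (-2.19 to -1.23), with the GAPDH covariate (-1.62) and on the deposited values (-1.14), and the cyclic change was -0.54 (adjusted p = 0.56).

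The oxytocin receptor rose in both kinds of animal. OXTR was 4.02, 4.18 and 4.22 on day 15 and 5.91, 5.90, 5.46 and 5.62 on day 18. It rose by 1.58 ± 0.13 (adjusted p = 0.00019) in pregnant and by 1.66 in cyclic animals (adjusted p = 0.0042), with a difference of -0.06 ± 0.36 (adjusted p = 0.98). The level stayed lower in pregnant animals (means 4.13 and 5.73 on the scale of 14 arrays, against 4.74 and 6.39). ESR1, oestrogen receptor alpha, was 4.82, 5.04 and 4.96 and then 5.23, 5.01, 4.77 and 5.12. That change of 0.09 ± 0.12 did not pass (adjusted p = 0.57; 0.03 to 0.18 with 1 animal left out, 0.03 without day 18 animal 1, 0.04 without day 15 animal 1, 0.14 without day 15 animal 2 and 0.18 without day 18 animal 3), whereas it rose by 0.89 in cyclic animals. The ESR1 difference of -0.80 missed the threshold (adjusted p = 0.14; 0.029 in the fit of 24 arrays). PGR, the progesterone receptor, was 4.42 to 4.76 on day 15 and 4.29 to 4.42 on day 18 and did not pass (-0.18, adjusted p = 0.18; -0.08 without day 15 animal 1), and was 0.54 higher on the deposited values.

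Of 20 steroid receptor and oxytocin genes 4 were higher and 1 lower (0 without day 15 animal 1 or 3), and of 17 prostaglandin genes 3 were higher and 2 lower. The shares called were 25% and 29.4%, against 36.8% of all genes. PTGS2, the inducible cyclooxygenase, was 10.12, 9.93 and 11.18 on day 15 and 9.60, 10.02, 9.43 and 9.79 on day 18. Its change of -0.70 ± 0.28 did not pass (adjusted p = 0.085) and was -0.31 without day 15 animal 3, the animal with the highest value (-0.94 at the other end, where 1 of 7 fits passed). It did pass with median centring (-0.87, adjusted p = 0.036), in 1 fit of the 14 arrays (adjusted p = 0.048) and in the mean over its probe sets (-0.71, adjusted p = 0.036). Another PTGS2 probe set passed as lower (-1.34, adjusted p = 0.035), and a further one did not pass (-0.08). PTGES, a prostaglandin E synthase, rose by 0.95 ± 0.13 and by 0.98 in cyclic animals.

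Transport and lipid genes moved in both directions. SLC5A1, the sodium-coupled glucose carrier, was 11.35, 11.29 and 11.43 on day 15 and 9.41, 9.98, 10.58 and 10.15 on day 18. It fell by 1.33 ± 0.23 (adjusted p = 0.0034) and by 0.87 in cyclic animals. SLC2A1, the facilitative glucose carrier of most cells, was 11.94, 12.02 and 11.50 and then 12.06, 12.16, 12.31 and 12.39. Its change of 0.41 just missed the threshold (adjusted p = 0.051; 0.25 without day 15 animal 3), and it rose by 0.72 in cyclic animals. SCNN1B, a subunit of the epithelial sodium channel, fell by 0.79 in pregnant and 0.80 in cyclic animals. On the deposited values each of these changes was -0.02 and did not pass (adjusted p = 0.85 and 0.86). Of 30 glucose and ion transport genes 3 were higher (5 without day 15 animal 2 or day 18 animal 1) and 7 lower, as in cyclic animals (4 and 7). In pregnant animals 33.3% of the 30 passed, against 36.8% of all genes.

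Among 18 amino acid and peptide carriers 3 were higher and 2 lower (27.8% called, against 36.8% of all genes). SLC7A5, a carrier of large neutral amino acids, rose by 0.92 ± 0.17 (adjusted p = 0.0039) against -0.07 in cyclic animals, while SLC7A1, the cationic amino acid carrier, fell by 1.01 in pregnant and 1.00 in cyclic animals. SLC15A1, the peptide carrier, was 4.84, 4.93 and 4.83 on day 15 and 6.51, 8.65, 6.44 and 5.55 on day 18, with animal 2 the highest. The rise of 1.92 ± 0.61 (adjusted p = 0.038) ended without any day 15 animal or day 18 animal 1 or 3 (1.30 to 2.35) and with the GAPDH covariate (adjusted p = 0.14), and the cyclic change was 0.39 (adjusted p = 0.12).

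Of 31 lipid genes 7 were higher and 5 lower (4 higher without day 15 animal 2, 2 lower without any single day 15 animal). The share called was 38.7%, against 36.8% of all genes. FABP3, a fatty acid carrier, was 10.50, 10.17 and 9.91 on day 15 and 11.29, 12.91, 11.61 and 11.86 on day 18, all far above the cyclic means of 7.78 and 7.79. It rose by 1.73 ± 0.34 (adjusted p = 0.006). CD36, the fatty acid translocase, was 4.90, 6.56 and 5.96 on day 15 and between 6.97 and 7.35 on day 18, without overlap. Its rise of 1.31 ± 0.33 (adjusted p = 0.016) became 0.85 without day 15 animal 1, and the cyclic change was -0.84 (adjusted p = 0.19). APOA1, the main protein of high-density lipoprotein, fell by 1.24 ± 0.26 (adjusted p = 0.0075, and 0.057 on the deposited values) against 0.09 in cyclic animals. FASN, fatty acid synthase, rose by 1.08 ± 0.24 and by 0.74 in cyclic animals, and the probe set standing for SREBF1, its regulator, by 0.70 and 0.71. Of 3 other SREBF1 probe sets 2 rose by less (0.45 and 0.34), and the third fell by 0.90 in pregnant animals (adjusted p = 0.00056), and the mean over all of them in a fit by gene did not pass (0.15, adjusted p = 0.16). LPL, lipoprotein lipase, was 4.54, 5.03 and 5.34 and then 5.23, 5.16, 5.62 and 4.63 and did not pass (0.19, adjusted p = 0.58; -0.03 without day 15 animal 1, 0.04 without day 18 animal 3, 0.38 without day 15 animal 3 and 0.36 without day 18 animal 4).

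Cell cycle genes were higher in 13 and lower in 1 of 38 measured (median 0.38), and in cyclic animals in 9 and 4 (median 0.12). In pregnant animals 36.8% of the 38 passed, the same share as over all genes. The 13 became 5 to 17 with 1 animal left out: 6 without day 15 animal 1 or 2, 5 without day 15 animal 3 and 17 without day 18 animal 3. RRM2, the small subunit of ribonucleotide reductase, was 3.88, 4.07 and 3.33 on day 15 and 5.23, 7.40, 4.87 and 5.14 on day 18, and NUSAP1, a spindle protein, was 3.92, 3.87 and 3.33 and then 4.72, 5.90, 4.60 and 4.63. CCNB2, a mitotic cyclin, went from 4.62, 4.90 and 4.55 to 5.59, 6.94, 6.04 and 5.95. Day 18 animal 2 was the highest in all 3 genes, as it was in UPK1B, GJB2, SLC15A1, GPX3 and FABP3. CCNB2 rose by 1.44 ± 0.28 (adjusted p = 0.0052) against 0.10 in cyclic animals (difference 1.35, adjusted p = 0.17). RRM2 rose by 1.90 ± 0.56 (lost without any day 15 animal, 1.29 to 2.13, and with the GAPDH covariate, adjusted p = 0.11) and by 0.95 in cyclic animals, and NUSAP1 by 1.26 ± 0.32 (lost without day 15 animal 3, 0.92 to 1.42, and with the GAPDH covariate, adjusted p = 0.075), against -0.24 in cyclic animals.

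Insulin-like growth factors and their binding proteins were more often lower than higher: 7 of 17 measured were lower and 1 higher, against 2 and 1 in cyclic animals (4 lower and 2 higher without day 15 animal 1, 2 higher without day 18 animal 3). The share called was 47.1%, against 36.8% of all genes. The list median was -0.13, and -0.005 relative to all genes on the deposited values. IGF1, which the endometrial stroma makes, was 8.49, 8.53 and 8.41 on day 15 and 7.94, 7.74, 7.73 and 7.94 on day 18. It fell by 0.64 ± 0.09 (adjusted p = 0.0013; 0.06 higher on the deposited values) against -0.23 in cyclic animals. Other IGF1 probe sets gave -1.45 and -0.94 (adjusted p = 0.0005 and 0.00024) and 0.07, which did not pass. The probe set with -1.45 had a difference of -1.46 that missed the threshold (adjusted p = 0.058). IGFBP3, which carries IGF1 in plasma and tissue and lies outside the rule for naming genes, fell by 0.46 ± 0.12 (adjusted p = 0.017; 0.19 higher on the deposited values), a call lost without day 15 animal 1 or 2 (-0.54 to -0.39) and with the GAPDH covariate (adjusted p = 0.071), against 0.35 in cyclic animals (adjusted p = 0.15). Extracellular matrix genes were lower in 8 and higher in 3 of 35 (median -0.14), and in cyclic animals in 3 and 2 (median 0.03). Of the 35, 31.4% passed in pregnant animals. THBS2, a matricellular thrombospondin, rose by 0.83 in pregnant and 0.76 in cyclic animals. Of 4 smooth muscle markers, DES, desmin, was higher by 0.82 and by 0.61 in cyclic animals and 3 did not pass, with mean levels of 8.33 to 8.53 on day 15 and 8.72 to 8.84 on day 18.

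Cytosolic ribosomal proteins were lower in 12 and higher in 2 of 47 (6 lower without day 15 animal 2; median -0.12, against -0.04 in cyclic animals, and -0.55 relative to all genes on the deposited values), and proteasome subunits in 9 and 2 of 25 (5 lower without day 15 animal 3, and 1 higher without any animal other than day 18 animal 1; median -0.22 and -0.17). Of ribosomal and proteasome genes 29.8% and 44% passed in pregnant animals. RPL37, a ribosomal protein, was 1.18 ± 0.07 higher, and 1.41 higher in cyclic animals. Of 47 oxidative phosphorylation genes 7 were higher and 0 lower (14.9% called, against 36.8% of all genes), against 7 and 8 in cyclic animals. The 7 became 3 without any day 15 animal or day 18 animal 4, and 5 were lower without day 18 animal 2. The complex I subunit NDUFS6 rose by 0.80 and by 0.72 in cyclic animals.

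The remaining lists are given by their counts. In these lists, cell markers apart, 25.9% to 40.9% of genes passed, against 36.8% of all genes. Serine and amino acid synthesis genes were higher in 5 and lower in 2 of 21 (3 higher without day 15 animal 1; 4 lower without day 18 animal 3 and 1 without day 15 animal 2 or 3 or day 18 animal 4), sterol synthesis genes in 1 and 5 of 17 (1 to 3 lower with 1 animal left out, except for 7 without day 18 animal 3), and endoplasmic reticulum folding genes in 7 and 2 of 22 (3 higher without day 15 animal 2). Immediate early and heat shock genes were higher in 6 and lower in 2 of 26, Wnt genes in 4 and 2 of 22, genes of TGF-beta, activin and BMP signalling in 2 and 5 of 27, angiogenesis and hypoxia genes in 4 and 5 of 32, and matrix proteases and their inhibitors in 4 and 4 of 22. With 1 animal left out, angiogenesis genes were higher in 2 without day 15 animal 1 and lower in 3 without day 15 animal 2. Matrix protease genes were higher in 2 without day 15 animal 2 or day 18 animal 2, 3 or 4, and lower in 2 without day 15 animal 3 or day 18 animal 2. Immediate early genes were lower in 1 without day 15 animal 1 or 3 and in 4 without day 18 animal 3, and TGF-beta genes were higher in 4 without day 15 animal 1 and in 1 without any other animal but day 18 animal 1. Wnt genes were lower in 1 without day 15 animal 1 or 2 or day 18 animal 2, 3 or 4. Among cell markers, 1 endothelial gene of 6 was higher and 1 lower, 1 mast cell gene of 2 was lower, and 2 of 3 erythrocyte and platelet genes were lower. The erythrocyte count was 1 without any animal other than day 15 animal 1, the higher endothelial call was lost without day 15 animal 1, and the lower one without any animal other than day 15 animal 1 or day 18 animal 3.

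Of the 23 probe sets whose change differed, 14 stand for the genes above and 1 is the other C2 probe set. Of the remaining 8, 2 belong to TTC3 (-1.04 and -1.01), 1 to SF3B1 (-1.01) and 5 have no symbol here (-0.73, -1.55, -1.23, 1.36 and 0.78). TTC3 and SF3B1, an ubiquitin ligase and a splicing factor, were chosen after their values were seen, and other probe sets stand for both genes in the counts by gene.

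**Figure D5:**
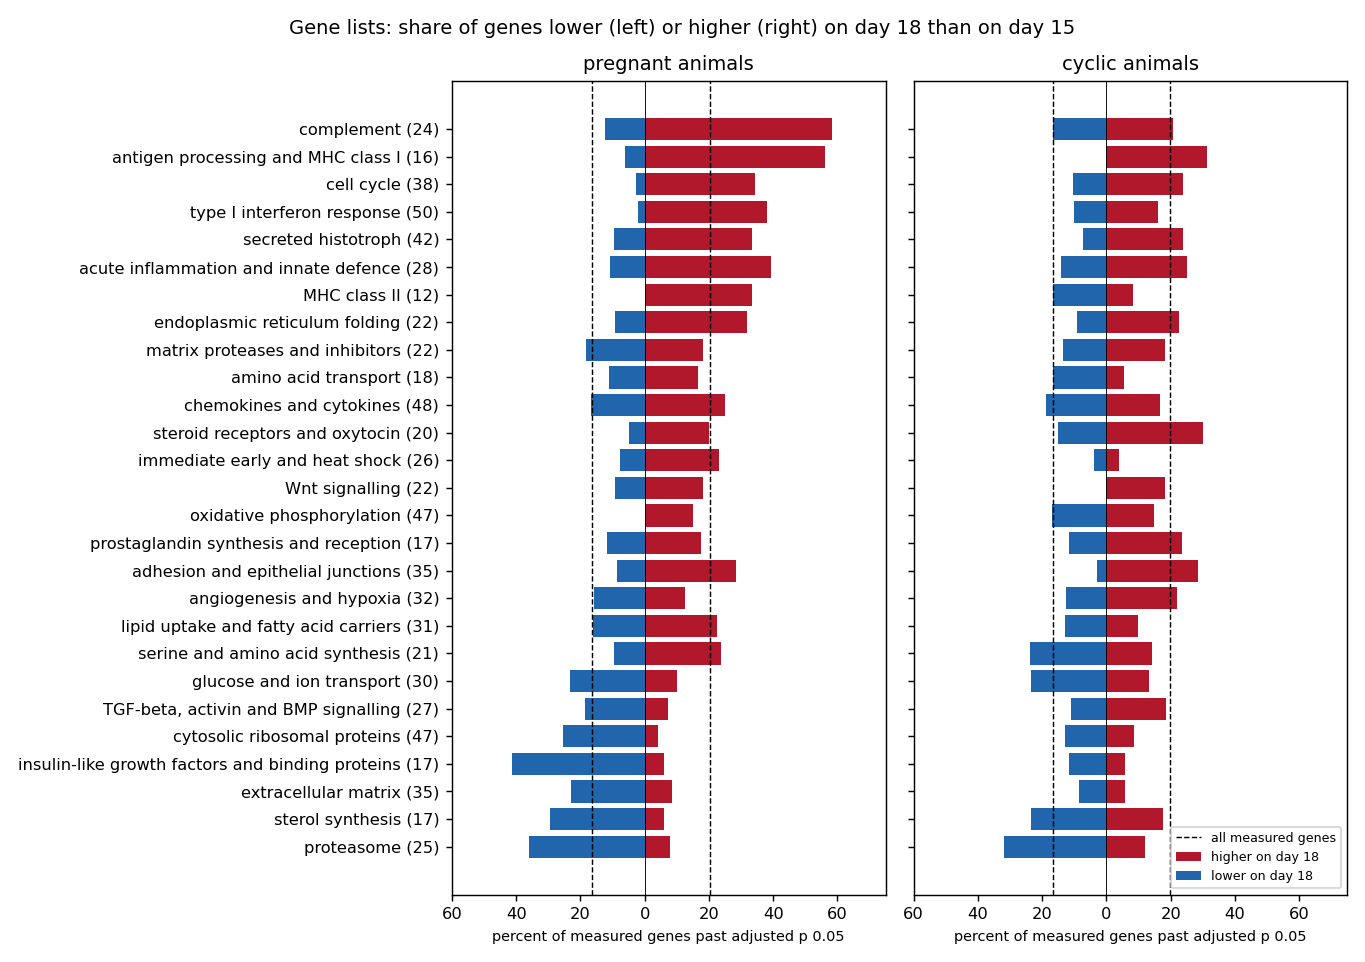
Share of measured genes (percent, number measured in parentheses) that passed as higher (right) or lower (left) on day 18, for 27 gene lists in pregnant (left panel) and cyclic animals (right panel). Dashed lines mark the shares over all measured genes, 20.3% higher and 16.5% lower in pregnant animals. Complement had 14 of 24 higher in pregnant and 5 of 24 in cyclic animals. Antigen processing and MHC class I had a similar share, with 9 of 16 higher in pregnant and 5 of 16 in cyclic animals.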

How the data were processed

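Log2 expression values were deposited for each probe set and animal; per the submitters' processing notes they came from RMA in the affy package, with versions not given in the sources used here. Sorted values were nearly identical among arrays of a day and differed between days, from which separate normalisation of the days was inferred. In R 4.3.3, 112 control probe sets were left out, and the 7 pregnant arrays, the 7 cyclic arrays, and all 14 for the difference between both changes were quantile normalised. Groups were compared with limma 3.58.1 (lmFit, eBayes, Benjamini-Hochberg adjustment over 24016 probe sets, threshold 0.05). Precision is limited by how many arrays there are. The labels do not say more of the replicates than that each array is 1 animal.

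Of the probe sets, 13292 had 1 symbol in the platform annotation, 86 several and 10638 none, and 13263 symbols were found by identifier in RefSeq. Each gene was represented by its brightest probe set, by the mean of the 7 pregnant arrays (9155 genes, 2913 with more than 1 probe set). Named genes were the 10 largest rises and 10 largest falls without overlap, up to 4 per list, the 5 largest differences in each direction and a fixed set, without LOC symbols. Genes outside this rule, among them CD180, OLR1, ALOX5AP, ANXA1, MSR1 and CD86, were named after their values were seen. The comparison and the gene lists were chosen with earlier results of these data known. On simulated data with 200 probe sets changed by 1, the pregnant comparison recovered 85.5%, the cyclic one 89% and the difference 80.5%. False calls numbered 8, 10 and 14. The simulation used independent noise and left all other probe sets unchanged. It therefore does not show how well the smaller and more widespread changes of the data were found. Alternatives covered the scaling, a filter on dim probe sets, the intensity trend, array weights, the GAPDH control as a covariate, the replicate number as a block, the mean over probe sets, larger fits and leaving out each animal.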

Additional observations from a re-analysis of the deposited data

Results flagged for a closer look

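Among 95 genes tested, 4 had 1 animal of day 18 far above the other 3 pregnant animals of that day. They were GPX3 (animal 2, 7.48), RRM2 (animal 2, 7.40), NUSAP1 (animal 2, 5.90) and IDO1 (animal 3, 8.65). Chance gives such a gap in about 1 in 20 groups.

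The change from day 15 to day 18 differed between pregnant and cyclic animals, by the limma test of the difference, in 23 probe sets. The difference, pregnant minus cyclic change, was positive for IDO1 (2.18), KRT17 (1.73), C2 (1.67), BPI (1.62), FCGR3A (1.25), MSR1 (1.21), ALOX5AP (1.20), CD180 (1.17), OLR1 (1.15), ANXA1 (1.03) and CD86 (0.97). It was negative for TRAK2 (-2.88), TENM3 (-0.88) and ALDH1L2 (-0.53).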

How the results depend on the processing

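On the deposited values 19776 probe sets passed in pregnant animals (18694 higher, 1082 lower; 4862 and 45 by at least 1; 7834 genes) and 20260 in cyclic animals (7995 genes). Median centring gave 7439 lower, 1189 of them by at least 1. The GAPDH covariate gave 6025 (2989 higher; 2112 genes). With the replicate number as a block, 5581 passed in pregnant animals (2723 higher, 2858 lower; 1894 genes), 5956 in cyclic animals (1985 genes) and 7 for the difference (3 higher, 4 lower; 4 genes). Same-numbered animals did not deviate together (r = -0.15, 0.037 and -0.013, against -0.12 to 0.13 for other pairs). These 3 values, taken around means of 3 and 4 animals, gave no sign of pairing by number but cannot settle it. A batch shared by animals was not tested. The difference passed in 38 probe sets (17 lower) with dim ones left out, 36 with array weights (22 and 14) and 70 in the fit of 24 arrays (49 and 21; 27 genes).

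With 1 animal left out the pregnant count was 6777 to 8493 (higher 3373 to 4296, lower 3404 to 4197, by at least 1 302 to 381 and 365 to 446; genes 2383 to 3241), the cyclic count 7610 to 8056 (genes 2614 to 2928) and the difference 6 to 43 (higher 2 to 29, lower 4 to 14; genes 3 to 20).

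On the deposited values directions turned in pregnant animals for several list genes not described above, among them PPARG (0.036), LEF1 (0.14) and PSMD11 (0.15). Among the genes described, directions turned there for ALDH1L2 (0.30), C8A (0.12), CD79A (0.12), CDH1 (0.21), S100A9 (0.46), IGF1 (0.0625), IGFBP3 (0.19), PGR (0.54), TENM3 (0.20), TKDP1 (0.47) and VTN (0.35). In cyclic animals they turned for ALOX5AP (0.62), ANXA1 (0.35), BOLA-DMB (0.60), BPI (0.37), C8A (0.30), CD180 (0.85), CD86 (0.34), FCGR3A (0.35), IDO1 (0.56), IGF1 (0.44), LPL (0.61), MSR1 (0.0875), PGR (0.60), SPP1 (0.56), TKDP1 (0.46), UPK1B (0.45) and VTN (0.23). Median centring turned ISG15 (-0.36) and MX1 (-0.36) in pregnant and OLR1 (-0.44) in cyclic animals. The mean over probe sets turned TKDP1 (0.051) in pregnant and IDO1 (0.11), MSR1 (0.061) and TENM3 (-0.59) in cyclic animals. The cause of these changes was not tested.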
